A study of Mus musculus with 11 samples.

Results

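The genes described here are the 4 regulators of transcription and chromatin that lie in the interval deleted in complete deletion (CD) mice, Gtf2i, Gtf2ird1, Baz1b and Mlxipl. They were taken from the table of heart counts by Ensembl identifier through the symbols of GENCODE mouse release 21, and each of the 4 symbols matched 1 row of the 22608 genes of the table. All 4 passed the filter on low counts, as did 14 of the 25 genes of the table that lie between Gtf2i and Fkbp6. The samples are ventricles of 11 male mice of 8 to 16 weeks on a C57BL/6J background. CD mice are heterozygous in every cell for a deletion of chromosome 5 that models Williams-Beuren syndrome (WBS), and their wild-type (WT) littermates carry both copies. Both genotypes received daily intraperitoneal injections for 10 days of vehicle (VEH) or of JZL184 at 8 mg/kg, which blocks the breakdown of the endocannabinoid 2-AG by monoacylglycerol lipase. There were 2 WT mice with vehicle, against 3 in each of the WT JZL184, CD JZL184 and CD VEH groups, and the labels also call the vehicle mice untreated. The comparisons asked how far the remaining copy supplied each regulator and whether its level moved with JZL184.

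The deleted segment holds a cluster of proteins that act on transcription. Gtf2i encodes TFII-I, a factor that binds initiator and E-box elements and also answers to growth factor signalling. Gtf2ird1 encodes a relative of TFII-I with the same kind of helix-loop-helix repeats, known in muscle as MusTRD1 for its binding to the enhancer of slow troponin I, and it is known to repress its own promoter through sites with the core GGATTA. Baz1b encodes WSTF, a bromodomain protein that pairs with the ISWI ATPase Smarca5 in the WICH remodelling complex and phosphorylates histone H2A.X. Mlxipl encodes ChREBP, the glucose-responsive factor that binds E-boxes together with Mlx and drives genes of glycolysis and lipid synthesis, chiefly in liver and fat, and the gene can start transcription at alternative promoters.

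All 4 genes lie on chromosome 5 (GRCm38). Gtf2i spans chr5:134237834-134314760 on the minus strand, Gtf2ird1 lies beside it at chr5:134357656-134456716 on the same strand, Mlxipl spans chr5:135089890-135138382 on the plus strand and Baz1b spans chr5:135187264-135246129 on the plus strand. None of the 4 overlaps another gene of the table of heart counts that has a position, and annotated genes outside that table were not checked. The RefSeq promoter table (GRCm38.p6) holds 5 windows for the 4 members, each from 250 bases before to 50 bases after a start site. They were searched on both strands for GGATTA, which reads TAATCC along the other strand. A second search was for CACGTG, the E-box core, which reads the same on both strands. The 2 windows with a match are printed here, because they carry the letters to which the member itself or its family is known to bind. Matches are in capitals and the rest is in lower case, 5' to 3' along the strand of the gene.
Gtf2ird1 promoter, chr5:134456667-134456966, minus strand: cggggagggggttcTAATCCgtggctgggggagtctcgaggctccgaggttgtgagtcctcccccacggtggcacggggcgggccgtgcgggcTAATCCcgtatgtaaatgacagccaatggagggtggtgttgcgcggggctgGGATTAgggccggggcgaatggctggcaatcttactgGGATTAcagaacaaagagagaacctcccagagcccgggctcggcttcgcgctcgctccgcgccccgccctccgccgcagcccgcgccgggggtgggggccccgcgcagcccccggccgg
Mlxipl promoter, chr5:135089640-135089939, plus strand: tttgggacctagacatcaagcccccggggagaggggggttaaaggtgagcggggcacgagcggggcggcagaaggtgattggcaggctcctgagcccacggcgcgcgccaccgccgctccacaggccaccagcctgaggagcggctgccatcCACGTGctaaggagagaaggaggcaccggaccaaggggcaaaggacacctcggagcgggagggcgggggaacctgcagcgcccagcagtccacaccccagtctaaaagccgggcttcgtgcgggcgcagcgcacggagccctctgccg

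The Gtf2ird1 window held 4 matches to GGATTA, which begin 236, 157, 106 and 69 bases before the start site, with both orientations represented. Of 32851 windows of this length in the table, 7.06% held at least 1 match and 2 windows held at least 4. The upstream Mlxipl window held 1 CACGTG, 98 bases before the start site, and 7.15% of all windows held at least 1. The windows of Gtf2i and Baz1b and the second window of Mlxipl, which begins at 135106641, held neither set of letters. These matches describe the sequence alone, and no binding was measured in these samples.

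The depth was even, with 69660232 to 92251443 estimated counts per mouse, and 3 counts corresponded to at most 0.0435 CPM, the count after scaling for library size, a limit from counting error only. Markers of cardiomyocytes summed to 40950 to 41409 CPM in WT VEH and 31124 to 40491 CPM in WT JZL184 hearts. In CD VEH hearts the sum was 36604 to 38846 CPM and in CD JZL184 hearts 38926 to 41116 CPM. By contrast, 4 atrial markers summed to at most 2.42 CPM and 6 skeletal muscle markers to at most 2.88 CPM. Haemoglobin and other erythroid markers stood apart in CD VEH mouse A, at 18832 CPM against 1419 to 5512 CPM in the other 10 mice. Mitochondrially encoded genes made up 36.4% to 46.6% of all counts. In all 14 tested genes of the interval every CD mouse was below every WT mouse, so the genotype labels matched the data. No gene of the table checks the treatment labels, so the direction of each response to JZL184 rests on those labels within each genotype. Among all 11319 genes tested, 49.2% of the calls in CD VEH against WT VEH were higher in CD with TMM factors and 61.5% with upper quartile factors, and for WT JZL184 against WT VEH the share of higher calls was 52.5% and 64.0%. The tissue was sequenced in bulk, so less RNA per cell and fewer cells of a type cannot be told apart.

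The regulators differed widely in level. Per kilobase of merged exons, WT VEH hearts held 12.4 ± 0.42 CPM per kb of Gtf2i (SD, n = 2), 5.17 ± 0.26 of Baz1b, 3.81 ± 0.068 of Mlxipl and 1.46 ± 0.013 of Gtf2ird1, and the order was the same per kilobase of the longest transcript. The estimated counts behind these levels ranged over the 11 mice from 4359 to 9921 for Gtf2i, from 2095 to 5489 for Baz1b, from 670 to 1723 for Mlxipl and from 421 to 885 for Gtf2ird1. Between 0.83% and 2.49% of the distinct 31-base words in a member's transcripts also occur in transcripts of another gene. The authors' transcript quantification could divide reads only within that small shared part.

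Gtf2i, the most abundant member, stood at 129 and 123 CPM in WT VEH hearts and at 99.4, 95.2 and 105 CPM in the 3 WT JZL184 mice. In CD VEH hearts it was at 53.9, 57.2 and 51.2 CPM, and in CD JZL184 hearts at 66.4, 65.9 and 68.2 CPM. The 4 groups did not overlap, and from highest to lowest their order was WT VEH, WT JZL184, CD JZL184, CD VEH. How many of all genes tested show this full order was not counted, and the shares here are for pairs of groups. Among all genes tested, 31.5% were lower without overlap in CD VEH than in WT VEH, 24.3% in CD JZL184 than in WT JZL184 and 27.3% in WT JZL184 than in WT VEH mice, and 27.2% were higher without overlap in CD JZL184 than in CD VEH mice.

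Gtf2ird1, the relative of TFII-I and the scarcest member, stood at 11.12 and 10.99 CPM in WT VEH hearts and at 8.15, 7.51 and 9.42 CPM in WT JZL184 hearts. The CD VEH mice had 5.07, 5.25 and 5.74 CPM. The CD JZL184 mice had 6.44, 7.27 and 7.13 CPM. The CD and WT mice given JZL184 came close without overlap, and the order of the 4 groups was that of Gtf2i.

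Baz1b, the WSTF subunit of WICH, stood at 73.1 and 68.1 CPM in WT VEH hearts and at 55.4, 50.9 and 59.0 CPM in WT JZL184 hearts. In CD VEH hearts its 3 values lay close together at 26.2, 25.7 and 26.0 CPM, and in CD JZL184 hearts they were 34.2, 29.7 and 34.0 CPM. Again no groups overlapped and the order was the same.

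Mlxipl, which encodes ChREBP, stood at 20.9 and 21.4 CPM in WT VEH hearts and at 13.7, 11.9 and 15.6 CPM in WT JZL184 hearts. The CD VEH mice had 8.13, 8.22 and 8.21 CPM and the CD JZL184 mice 9.27, 9.08 and 8.52 CPM. The groups kept the common order without overlap, but the 2 CD groups were nearly level and their difference did not pass the edgeR test.

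**Figure D1:**
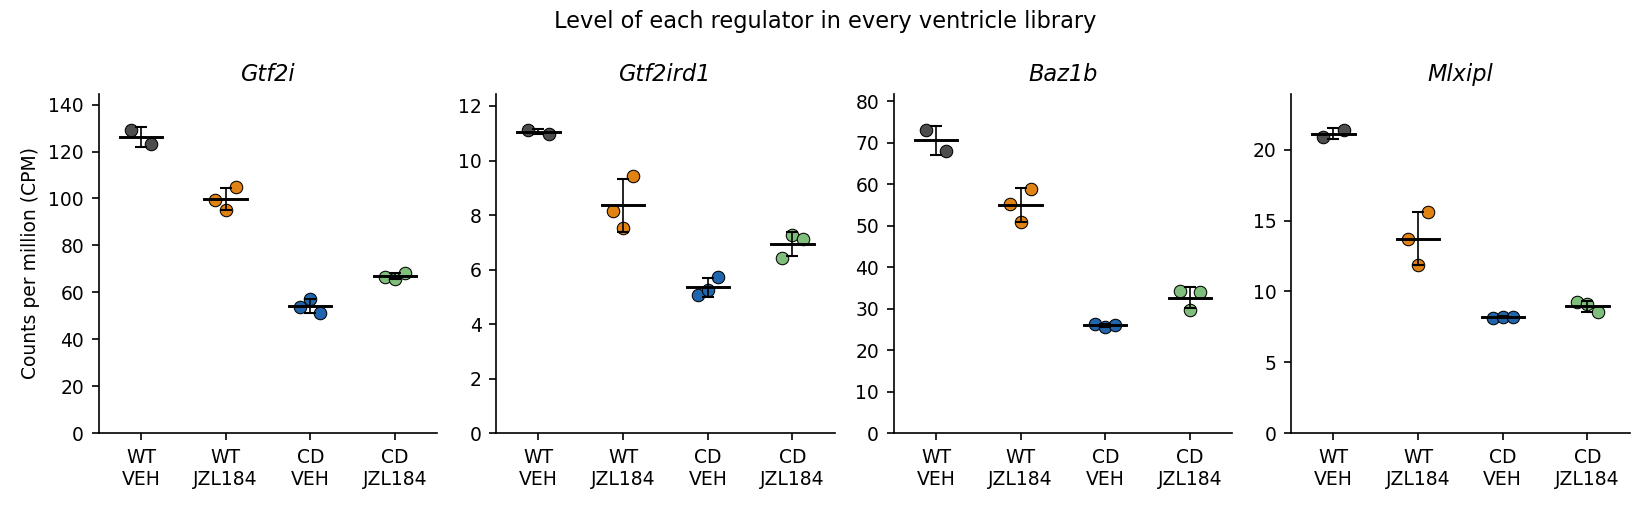
Level of each regulator in CPM (y axis, from 0) in every mouse (points) of the 4 groups (x axis), with the group mean (line) and SD (bar); n = 2 for WT VEH and 3 for the others. In every panel WT VEH is highest and CD VEH lowest, with Gtf2i from 126 to 54.1 CPM and Baz1b from 70.6 to 26.0 CPM between their means.

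With vehicle, all 4 regulators were lower in CD than in WT hearts, where 15.4% of all genes tested were called lower. The log2 fold-change was -1.44 for Baz1b (SE 0.078, adjusted p = 1.70e-06, edgeR quasi-likelihood test), -1.37 for Mlxipl (SE 0.094, adjusted p = 1.22e-05), -1.22 for Gtf2i (SE 0.066, adjusted p = 1.70e-06) and -1.05 for Gtf2ird1 (SE 0.10, adjusted p = 0.000286). As ratios, CD VEH hearts held 0.368 of the WT VEH level of Baz1b (95% interval 0.327 to 0.414), 0.388 of Mlxipl (0.336 to 0.447), 0.429 of Gtf2i (0.388 to 0.474) and 0.485 of Gtf2ird1 (0.415 to 0.565). The intervals of Baz1b, Mlxipl and Gtf2i lay wholly below a ratio of 0.5, the value of a level proportional to the number of gene copies, and that of Gtf2ird1 included it. With an offset for gene length the ratio of Gtf2i was 0.472 with an interval that reached 0.511, so for Gtf2i the position below 0.5 depended on that offset.

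With JZL184 in both genotypes the same loss was smaller. All 4 regulators were called lower in CD JZL184 than in WT JZL184 hearts, where 20.1% of all genes tested were called lower. CD JZL184 hearts held 0.593 of the WT JZL184 level of Baz1b (95% interval 0.533 to 0.661), 0.652 of Mlxipl (0.573 to 0.742), 0.670 of Gtf2i (0.612 to 0.733) and 0.830 of Gtf2ird1 (0.722 to 0.953). All 4 intervals lay above a ratio of 0.5. The log2 fold-changes were -0.75 for Baz1b (SE 0.071, adjusted p = 0.000119), -0.62 for Mlxipl (SE 0.086, adjusted p = 0.000835), -0.58 for Gtf2i (SE 0.060, adjusted p = 0.000196) and -0.27 for Gtf2ird1 (SE 0.092, adjusted p = 0.0368). The call of Gtf2ird1 was lost in 9 of 22 alternatives, among them the fit of the compared groups only (adjusted p = 0.0751) and the fit without WT JZL184 mouse D, in which the log2 fold-change was -0.17 (adjusted p = 0.145).

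Within CD mice, JZL184 went with higher levels of the remaining copy of 3 regulators, Gtf2i, Gtf2ird1 and Baz1b, where 16.8% of all genes tested were called higher. The log2 fold-change of CD JZL184 against CD VEH was 0.37 for Gtf2ird1 (SE 0.093, adjusted p = 0.0116), 0.33 for Baz1b (SE 0.072, adjusted p = 0.00633) and 0.31 for Gtf2i (SE 0.060, adjusted p = 0.00446), that is 29.7%, 25.8% and 23.5% above CD VEH. Mlxipl was not called, with a log2 fold-change of 0.13 (95% interval -0.06 to 0.32, adjusted p = 0.262). With the offset for gene length the values of Gtf2i and Baz1b were 0.18 (adjusted p = 0.0194) and 0.16 (adjusted p = 0.0390), so these remained called but at a smaller size. The measure is of total RNA from the gene, and in CD mice it comes from a single allele.

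Within WT mice the direction was the opposite. All 4 regulators were called lower in WT JZL184 than in WT VEH hearts, where 14.0% of all genes tested were called lower. Mlxipl had the largest difference of the 4, with a log2 fold-change of -0.62 (SE 0.093, adjusted p = 0.00230), a level of 0.650 of that with vehicle. The values were -0.40 for Gtf2ird1 (SE 0.10, adjusted p = 0.0140), -0.36 for Baz1b (SE 0.078, adjusted p = 0.00824) and -0.34 for Gtf2i (SE 0.066, adjusted p = 0.00534). WT VEH holds 2 mice. Without either of them the fit takes the spread from the other 3 groups and assumes that the remaining WT VEH mouse varies like them. Without WT VEH mouse C only Mlxipl was still called, while Gtf2i (-0.30, adjusted p = 0.0613), Baz1b (-0.31, adjusted p = 0.0841) and Gtf2ird1 (-0.39, adjusted p = 0.0915) missed the threshold. Without WT VEH mouse D, Gtf2ird1 alone missed it (adjusted p = 0.0727), and in the fit of the compared groups only its adjusted p was 0.0540. With the length offset the value of Baz1b was -0.21 (adjusted p = 0.0217), against -0.36 without it.

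**Figure D2:**
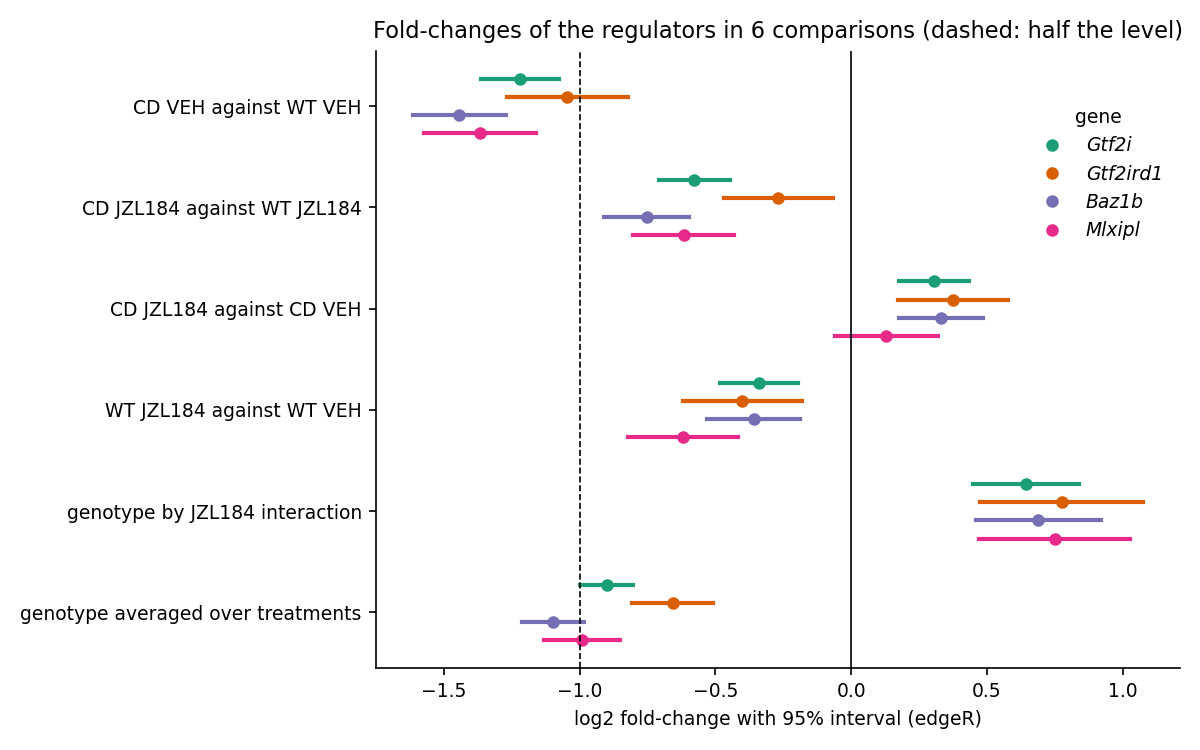
log2 fold-change (x axis) of the 4 regulators in 6 comparisons (y axis), with lines for the 95% interval from edgeR and a dashed line at -1, the log2 of a ratio of 0.5. With vehicle the points lie between -1.44 and -1.05, with JZL184 between -0.75 and -0.27, and the responses to JZL184 lie above 0 in CD and below 0 in WT mice.

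The difference between these responses was tested as a genotype by treatment interaction. It was positive and called for all 4 regulators, with 25.3% of all genes tested called higher in this term. The response to JZL184 in CD minus that in WT was 0.78 for Gtf2ird1 (SE 0.14, adjusted p = 0.00091), 0.75 for Mlxipl (SE 0.13, adjusted p = 0.000718), 0.69 for Baz1b (SE 0.11, adjusted p = 0.000415) and 0.64 for Gtf2i (SE 0.089, adjusted p = 0.000273), on the log2 scale. With the length offset the values of Gtf2i and Baz1b were 0.41 (adjusted p = 0.00112) and 0.37 (adjusted p = 0.00271). In total 51.5% of all genes tested were called in this term, in either direction. The pattern of being called higher with JZL184 in CD mice and lower with JZL184 in WT mice was met by Gtf2i, Gtf2ird1 and Baz1b and by 10.5% of all genes tested. Each of the 4 groups enters 2 of the 4 simple comparisons, so these are not independent of each other.

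Averaged over both treatments, by contrast, few genes differed between genotypes, and the 4 regulators were among them. The averaged log2 fold-change of CD against WT was -1.10 for Baz1b (SE 0.053, adjusted p = 3.31e-07), -0.99 for Mlxipl (SE 0.064, adjusted p = 3.43e-06), -0.90 for Gtf2i (SE 0.045, adjusted p = 3.51e-07) and -0.66 for Gtf2ird1 (SE 0.069, adjusted p = 0.000427), where 0.671% of all genes tested were called lower. Every CD mouse was below every WT mouse for each of the 4, a pattern that 0.592% of all genes tested showed. The averaged intervals placed Gtf2ird1 above a ratio of 0.5 (0.634, 0.572 to 0.703) and included 0.5 for Baz1b (0.467, 0.431 to 0.506) and Mlxipl (0.503, 0.457 to 0.554). That of Gtf2i began at 0.501.

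The same values can be read across the diagonal of the design. CD JZL184 hearts held on average 0.530 of the mean CPM of WT VEH hearts for Gtf2i, 0.462 for Baz1b, 0.424 for Mlxipl and 0.628 for Gtf2ird1. CD VEH hearts held 0.542 of the mean CPM of WT JZL184 hearts for Gtf2i, 0.472 for Baz1b, 0.597 for Mlxipl and 0.640 for Gtf2ird1. For Gtf2i, Baz1b and Gtf2ird1 these 2 ratios were close to each other, and for Mlxipl they were apart. They are ratios of means, given without a test.

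The other 10 tested genes of the interval, which encode proteins of other kinds, were all called lower in CD in both genotype comparisons. With vehicle their median log2 fold-change was -0.88 (range -1.18 to -0.58), against a median of -1.29 (range -1.44 to -1.05) for the 4 regulators and of 0.01 for all genes tested. With JZL184 their median was -0.95 (range -1.51 to -0.80), against -0.60 (range -0.75 to -0.27) for the regulators. By median the regulators had the larger loss of the 2 sets with vehicle and the smaller with JZL184, and the ranges overlapped with vehicle and did not overlap with JZL184. In response to JZL184 the other 10 genes had a median of -0.02 in CD mice and 0.07 in WT mice, with 1 gene called higher and 1 lower in CD and 2 called higher in WT. In the interaction 2 were called higher and 3 lower. Tbl2, a WD-repeat gene next to Mlxipl, Dnajc30, which encodes a mitochondrial chaperone, and Clip2, a microtubule linker gene next to Gtf2ird1, were named after their values were seen. Tbl2 and Dnajc30 had the direction of the regulators, with an interaction of 0.38 (SE 0.12, adjusted p = 0.0209) for Tbl2 and of 0.30 (SE 0.097, adjusted p = 0.0223) for Dnajc30. Clip2 had an interaction of -0.88 (SE 0.14, adjusted p = 0.000538).

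**Figure D3:**
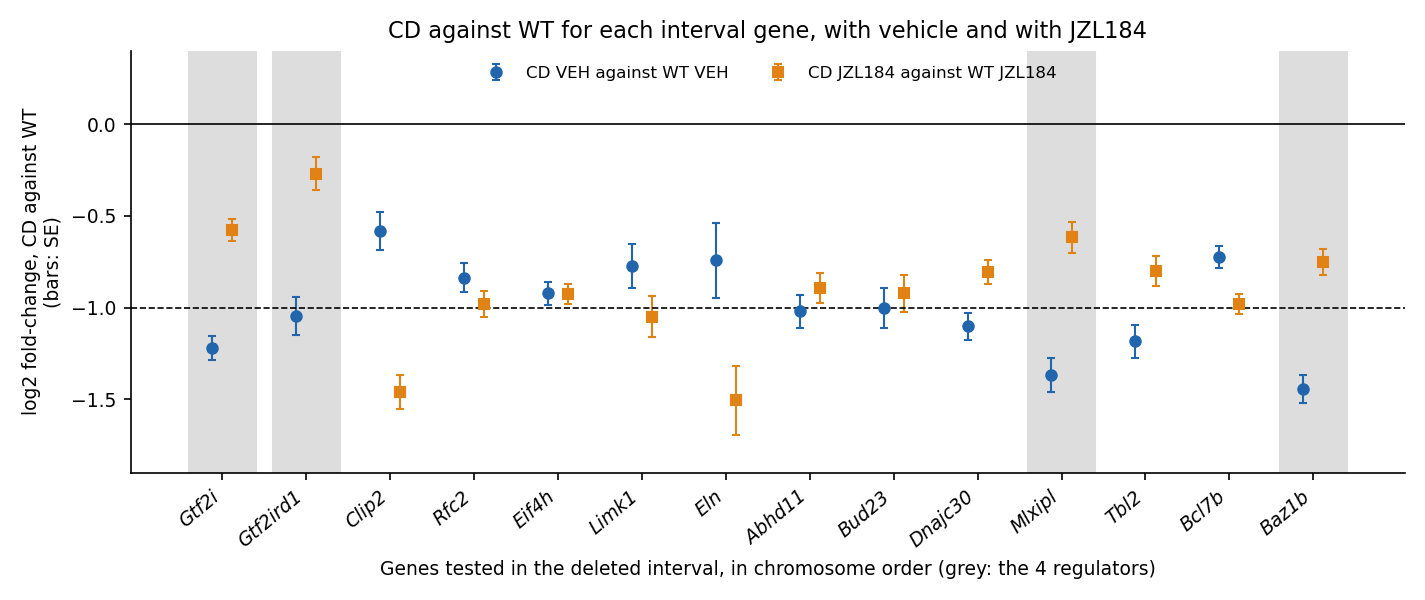
log2 fold-change of CD against WT (y axis, bars are SE) with vehicle (circles) and with JZL184 (squares) for the 14 tested genes of the interval in chromosome order (x axis), the 4 regulators on grey and a dashed line at a ratio of 0.5. For each regulator the square lies above the circle, as for Baz1b at -0.75 and -1.44, while for Clip2 the square at -1.46 lies below the circle at -0.58.

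The balance among the regulators was read as the log2 ratio of 2 members' CPM in the same mouse. In 3 of the 6 pairs the CD and WT mice did not overlap, as in 1.80% of all pairs of genes tested. Both genes of each pair are deleted, unlike most pairs behind that share. The ratio of Gtf2ird1 to Baz1b was -2.26 ± 0.14 (SD, n = 6) in CD mice and -2.70 ± 0.062 (SD, n = 5) in WT mice, so Gtf2ird1 made up more of the pair in each CD heart than in any WT heart. The ratio of Gtf2i to Baz1b was 1.05 ± 0.085 in CD and 0.85 ± 0.032 in WT mice, and that of Gtf2i to Gtf2ird1 was 3.30 ± 0.12 in CD and 3.55 ± 0.080 in WT mice. These ratios differed little between treatments, as for Gtf2i to Baz1b at 1.06 and 1.04 in CD VEH and CD JZL184 hearts and at 0.84 and 0.86 in WT VEH and WT JZL184 hearts. Ratios with Mlxipl overlapped between genotypes. They are given as a description, since the members were chosen with their levels known.

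**Figure D4:**
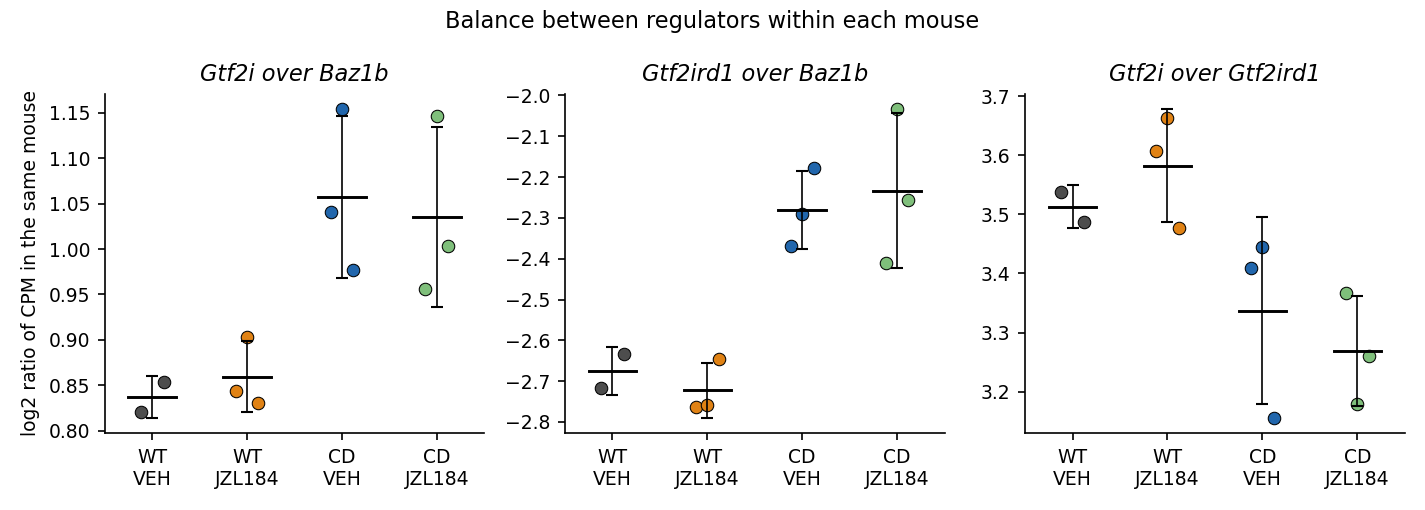
log2 ratio of the CPM of 2 regulators in the same mouse (y axis) for the 3 pairs whose genotypes do not overlap, by group (x axis), with the group mean (line) and SD (bar). The 6 CD mice lie above the 5 WT mice for Gtf2i over Baz1b and Gtf2ird1 over Baz1b, and below them for Gtf2i over Gtf2ird1.

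Partners, reported targets and related complexes of the regulators were followed through 6 lists with 114 genes, of which 97 were tested. In CD VEH against WT VEH 33 of the 97 were called (34.0%), beside 30.4% of all genes tested, with 14 higher and 19 lower. In CD JZL184 against WT JZL184 33 were called, beside 38.3% of all genes tested. In CD JZL184 against CD VEH 34 were called, beside 33.8%, and in WT JZL184 against WT VEH 26, beside 29.4%. In the interaction 56 were called (57.7%), beside 51.5%. Averaged over treatments, edgeR called 0 of the 97 and 1.09% of all genes tested, and DESeq2 called 2. Over the 6 lists together the shares were near those of all genes tested in every comparison. By direction, 15.0% of all genes tested were called higher and 15.4% lower in CD VEH against WT VEH, 16.8% higher and 17.0% lower in CD JZL184 against CD VEH, and 15.4% higher and 14.0% lower in WT JZL184 against WT VEH. In CD JZL184 against WT JZL184 the shares were 18.2% higher and 20.1% lower. The calls against WT VEH rested on both of its mice. Without mouse C 2 of the 97 were called for the deletion under vehicle and 3 for JZL184 in WT mice, and without mouse D 9 in each. All genes tested fell likewise, from 3440 calls for the deletion under vehicle to 385 without mouse C and 1217 without mouse D, and from 3332 calls for JZL184 in WT mice to 558 and 1031. Such a fit leaves 1 WT VEH mouse, so a call lost in it does not by itself show a smaller difference. Without mouse C the differences between CD VEH and WT VEH given below were smaller for Myh7 and Rcor1 and larger for Hdac1.

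Among 21 tested genes of the TFII-I family and its partners, 1 was called higher and 2 lower in CD VEH against WT VEH. Rcor1, a scaffold of the CoREST repressor, had a log2 fold-change of -0.35 (SE 0.072, adjusted p = 0.00616), and Hdac1, a histone deacetylase, of 0.37 (SE 0.082, adjusted p = 0.00832). In CD JZL184 against CD VEH the values were 0.32 for Rcor1 (adjusted p = 0.00506) and -0.25 for Hdac1 (adjusted p = 0.0219). For CD JZL184 against WT JZL184 Rcor1 was called higher (0.24, adjusted p = 0.0139), opposite to its direction with vehicle, and Hdac1 was at -0.17 (adjusted p = 0.0838). Without WT VEH mouse C the values of the deletion under vehicle were -0.27 for Rcor1 (adjusted p = 0.0769) and 0.41 for Hdac1 (adjusted p = 0.058), and without mouse D that of Hdac1 was 0.34 (adjusted p = 0.0668). The call of Hdac1 with JZL184 in CD mice was lost in 5 of 22 alternatives. Gtf2ird2, the third TFII-I family gene, was at 4.77 ± 0.028 CPM in WT VEH (SD, n = 2), 4.25 ± 0.39 in WT JZL184, 4.19 ± 0.073 in CD VEH and 4.87 ± 0.12 in CD JZL184 hearts (SD, n = 3 each). It was called in no simple comparison, with log2 fold-changes of -0.19 for CD VEH against WT VEH (adjusted p = 0.153) and 0.22 for CD JZL184 against CD VEH (adjusted p = 0.0688), and its interaction was 0.39 (adjusted p = 0.0267). The partners Usf1, Srf and Hdac3 were called in none of the 4 simple comparisons, but Srf, at 0.22 in both CD JZL184 against CD VEH (adjusted p = 0.0708) and CD JZL184 against WT JZL184 (adjusted p = 0.0654), passed in 6 and 4 of 22 alternatives.

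Of 10 tested genes reported as targets of the TFII-I family, 1 was called higher and 1 lower with the deletion under vehicle, and 1 higher and 4 lower with the deletion under JZL184. Myh7, the slow beta-myosin heavy chain, had a log2 fold-change of -1.06 (SE 0.19, adjusted p = 0.00452) in CD VEH against WT VEH. It was -0.98 in WT JZL184 against WT VEH (SE 0.19, adjusted p = 0.00564) and 0.70 in CD JZL184 against CD VEH (SE 0.18, adjusted p = 0.0121). With JZL184 in both genotypes Myh7 was higher in CD than in WT hearts (0.63, SE 0.18, adjusted p = 0.0158), the opposite of its direction with vehicle, and this call was lost in 1 of 22 alternatives. Without WT VEH mouse C the values against WT VEH were -0.66 for CD VEH (adjusted p = 0.0635) and -0.59 for WT JZL184 (adjusted p = 0.0797), and neither was called. Kdr, the main VEGF receptor of endothelium, was higher in WT JZL184 than in WT VEH hearts (0.59, SE 0.10, adjusted p = 0.00340) and did not pass the test between CD VEH and WT VEH (0.26, adjusted p = 0.0666), though it passed in 6 of 22 alternatives. It was lower in CD JZL184 than in WT JZL184 hearts (-0.51, adjusted p = 0.00177), a call kept in all 22 alternatives. Kdr is also 1 of the 7 endothelial markers, which were all called higher in WT JZL184 against WT VEH with a median of 0.62 and all lower in CD JZL184 against WT JZL184 with a median of -0.56, and its own share in this movement was not tested. Ccnd1, which encodes cyclin D1, was lower in CD JZL184 than in WT JZL184 hearts (-0.54, adjusted p = 0.00285). Tnni1, slow troponin I, lay between 0.117 and 0.346 CPM in every mouse and was not tested. Averaged over treatments no gene of this list was called.

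For the complexes of WSTF, 22 tested genes gave 5 higher and 3 lower calls in CD VEH against WT VEH, and 4 higher and 2 lower calls in CD JZL184 against WT JZL184. In the first of these 1 was called without WT VEH mouse C, beside 385 of the 11321 genes in that fit. Smarca5, the ATPase that binds WSTF, was at 39.8 ± 0.037 CPM in WT VEH, 34.0 ± 3.2 in WT JZL184, 35.2 ± 1.1 in CD VEH and 38.0 ± 1.2 in CD JZL184 hearts. Its log2 fold-change for JZL184 in WT mice was -0.23 (adjusted p = 0.0400), a call lost in 14 of 22 alternatives (-0.28 to -0.14, adjusted p up to 0.167), and that for the deletion under vehicle was -0.18 (adjusted p = 0.0937). Baz1a, the paralog that pairs with Smarca5 in ACF, had a value of 0.42 in CD VEH against WT VEH (SE 0.15, adjusted p = 0.0497). This call was lost in 12 of 22 alternatives, with 0.26 without CD VEH mouse E (adjusted p = 0.168) and 0.33 without WT VEH mouse D (adjusted p = 0.251). Pcna, the sliding clamp that recruits WSTF to replication forks, was higher in CD VEH than WT VEH hearts (0.43, adjusted p = 0.00330) and lower in CD JZL184 than in CD VEH hearts (-0.38, adjusted p = 0.00235). With the offset for the longest transcript these were 0.27 and -0.23 and remained called. Myo1c, a nuclear myosin of the B-WICH complex, was called in none of the 6 comparisons.

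The 16 tested SWI/SNF subunits, which form another family of remodellers, gave 6 lower and 1 higher calls in CD VEH against WT VEH and 10 higher and 0 lower calls in CD JZL184 against CD VEH. In WT JZL184 against WT VEH 5 were lower and 1 higher. Between CD JZL184 and WT JZL184 7 were higher in CD and 1 lower, so with JZL184 most calls between genotypes had the direction opposite to most of those with vehicle. The list as a whole was not tested. The shares of all genes tested were 15.4% lower and 15.0% higher in the first of these comparisons, 16.8% higher in the second, 14.0% lower in the third and 18.2% higher in the fourth. With the offset for gene length the counts were 3 lower and 0 higher, 6 higher and 0 lower, 4 lower and 1 higher, and 6 higher and 0 lower. Leaving out WT VEH mouse C, edgeR called 0 of the 16 in the 2 comparisons with WT VEH, where it called 385 and 558 of 11321 genes. Without CD VEH mouse A, or without its mouse E, 7 were higher in CD JZL184 against CD VEH, where the fit without mouse A called 9.47% of its genes higher. Smarca4, the BRG1 ATPase, had log2 fold-changes of -0.25 (SE 0.074, adjusted p = 0.0246), 0.29 (adjusted p = 0.00855) and -0.23 (adjusted p = 0.0395) in the first 3 comparisons and of 0.26 (adjusted p = 0.0109) in the fourth. The first call was lost in 6 of 22 alternatives (smallest -0.13, adjusted p = 0.192, with the offset for the longest transcript), the second in 1 (0.17, adjusted p = 0.0652, with the same offset) and the third in 12 (smallest -0.13, adjusted p = 0.181, with that offset). Pbrm1, a bromodomain subunit, had the largest fall of the list with vehicle (-0.44, SE 0.083, adjusted p = 0.00466), which was -0.27 with the offset for the longest transcript and was not called without WT VEH mouse C (adjusted p = 0.0644), and Smarcd1 the largest rise with JZL184 in CD mice (0.38, adjusted p = 0.00855). Their median in the interaction was 0.33, beside 0.72 for the 4 regulators and -0.01 for all genes tested.

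Of 9 tested genes of the Mondo and MLX network, 4 were called higher and 1 lower in CD VEH against WT VEH, beside 15.0% and 15.4% of all genes tested. With JZL184 in both genotypes 0 were higher and 1, Mlx, lower in CD, a call lost in 16 of 22 alternatives. Without CD VEH mouse A 3 genes were called in the first comparison and without its mouse E 2, where these fits called 17.0% and 17.5% of all genes tested, and edgeR called 0 of the 9 without either WT VEH mouse. Mlx, the obligate partner of ChREBP, was at 12.1 ± 0.12 CPM in WT VEH, 13.9 ± 1.3 in WT JZL184, 14.4 ± 0.35 in CD VEH and 12.2 ± 0.48 in CD JZL184 hearts. By mean it thus stood in the order opposite to that of Mlxipl within each genotype. The differences of Mlxipl between the CD groups and of Mlx between the WT groups were not called. Mlx was called higher in CD VEH than WT VEH hearts (0.24, SE 0.079, adjusted p = 0.0387) and lower in CD JZL184 than CD VEH hearts (-0.24, adjusted p = 0.0231). Both calls were lost with the offset for gene length (0.09, adjusted p = 0.374, and -0.09, adjusted p = 0.298), and in all in 9 and 6 of 22 alternatives. Mlxip, the MondoA gene that is the main Mondo factor of muscle, was at 40.2 ± 0.94, 37.4 ± 5.8, 35.6 ± 1.9 and 40.9 ± 2.2 CPM in the same 4 groups. It was called by edgeR in no comparison, but at 0.20 in CD JZL184 against CD VEH (adjusted p = 0.125) it passed in 2 of 22 alternatives. Mycn, a Myc factor that shares partners of this network, had the largest difference of the list (1.05, SE 0.25, adjusted p = 0.0111) in CD VEH against WT VEH, and was not called there without either WT VEH mouse (adjusted p = 0.0883 and 0.0619).

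Of 19 tested genes reported as targets of ChREBP, 6 were called lower and 2 higher in CD VEH against WT VEH, beside 15.4% and 15.0% of all genes tested. With JZL184 in both genotypes 5 were higher and 3 lower in CD. For the deletion under vehicle 3 genes were called without CD VEH mouse A and 4 without its mouse E, where the fits called 17.0% and 17.5% of all genes tested, and 1 without WT VEH mouse C, beside 385 of 11321 genes. Acacb, the mitochondrial acetyl-CoA carboxylase that restrains fatty acid oxidation, was lower with the deletion under vehicle (-0.51, SE 0.090, adjusted p = 0.00399) and with JZL184 in WT mice (-0.49, adjusted p = 0.00422), and higher with JZL184 in CD mice (0.50, adjusted p = 0.00245). With JZL184 in both genotypes it was higher in CD than in WT hearts (0.49, adjusted p = 0.00158), where Mlxipl was lower. These 4 calls held in all 22 alternatives, and with the offset for the longest transcript the values were -0.31, -0.34, 0.32 and 0.35. Acaca, the cytosolic enzyme of lipid synthesis, had values of -0.38 (adjusted p = 0.0201) and 0.33 (adjusted p = 0.0193) for the deletion under vehicle and for JZL184 in CD mice. These were -0.15 (adjusted p = 0.213) and 0.14 (adjusted p = 0.194) with the offset for gene length, and the calls were lost in 5 and 6 of 22 alternatives. Fasn, the fatty acid synthase, missed the threshold for the deletion under vehicle (-0.19, adjusted p = 0.294) and was higher in CD JZL184 than in WT JZL184 hearts (0.51, adjusted p = 0.00676). Arrdc4, a glucose-induced arrestin, was higher in CD VEH than in WT VEH hearts (0.66, SE 0.18, adjusted p = 0.0207), a call lost in 4 of 22 alternatives. Txnip, its best-known companion, was called by edgeR in no comparison, with -0.39 for the deletion under vehicle (adjusted p = 0.212) and -0.30 under JZL184 (adjusted p = 0.279), each of which passed in 1 of 22 alternatives. Pklr was at or near 0, with at most 0.029 CPM in any mouse. Averaged over treatments, where Mlxipl had a ratio of 0.503, edgeR called 0 genes of this list.

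The patterns of the 4 genes over the 11 mice were most like each other's or those of neighbours in the interval. By Pearson's r of log2 CPM over the 11 mice, Gtf2i was most like Baz1b (0.993), Tbl2 (0.977) and Dnajc30 (0.969), and Baz1b was most like Gtf2i, Tbl2 (0.980) and Dnajc30 (0.970). Mlxipl was most like Gtf2i (0.963), Baz1b (0.961) and Gtf2ird1 (0.941), and Gtf2ird1 was most like Gtf2i (0.951), Baz1b and Mlxipl. The mice share the genotype and treatment groups and each mouse is 1 library, so these values describe the group pattern. With the group means subtracted, r between Gtf2i and Baz1b was 0.549 and that between Gtf2i and Gtf2ird1 was 0.296. On the same measure r with Tbl2 was 0.437 for Gtf2i and 0.294 for Baz1b, and r with Dnajc30 was 0.196 and -0.143.

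Other measures of the same libraries moved with the 4 groups. Endothelial markers, 7 of 7 tested, summed to 597 to 603 CPM in WT VEH, 588 to 680 in CD JZL184, 775 to 867 in CD VEH and 918 to 963 CPM in WT JZL184 hearts. All 7 were called lower in the interaction, as were 6 of 6 macrophage and 4 of 4 smooth muscle markers, 3 of 6 fibroblast markers and 5 of 5 erythroid markers, while of 8 cardiomyocyte markers 3 were higher and 1 lower. The share of mitochondrial counts was 39.4% to 41.2% in WT VEH and 36.4% to 40.1% in CD JZL184 against 43.5% to 44.7% in CD VEH and 44.96% to 46.6% in WT JZL184 hearts. Within each genotype the mean of each regulator was thus higher in the group with fewer mitochondrial counts and fewer endothelial and macrophage transcripts. Between the CD groups the difference of Mlxipl was not called. Long genes moved too: the median deviation in log2 CPM of genes with at least 7138 bp of exons minus that of genes with at most 2977 bp was 0.10 to 0.20 in WT VEH and 0.07 to 0.17 in CD JZL184 against -0.19 to -0.09 in CD VEH and -0.18 to 0.00 in WT JZL184 hearts. Baz1b and Gtf2i have merged exon lengths of 13667 and 10199 bp, Gtf2ird1 of 7594 and Mlxipl of 5538 bp. The part of cell type markers and of the mitochondrial share in the response to JZL184 was not tested, and the values with an offset for gene length are those given above. With counts of the mitochondrial genome left out of the totals, or without CD VEH mouse A, the calls of all 4 regulators were those given above in the 6 comparisons.

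**Figure D5:**
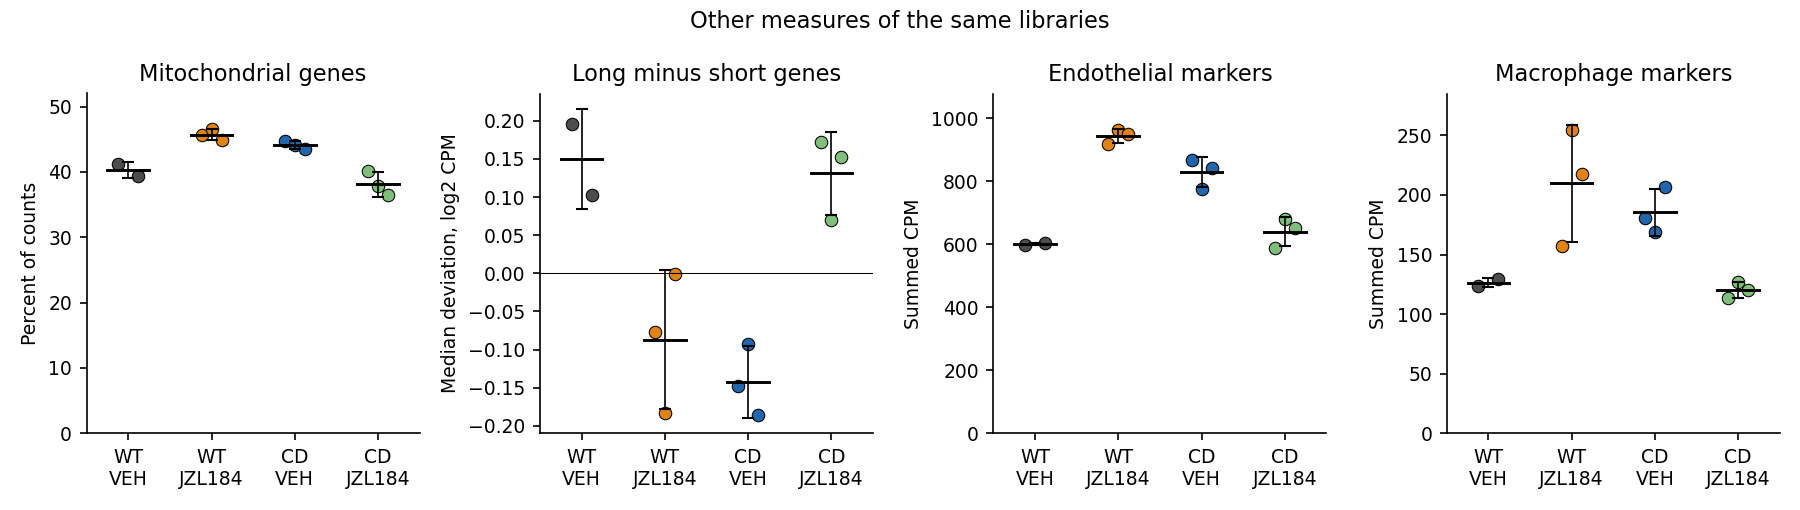
Other measures of the same 11 libraries by group (x axis), with the group mean (line) and SD (bar): percent of counts from mitochondrial genes, the deviation of long minus short genes in log2 CPM, and summed CPM of 7 endothelial and 6 macrophage markers. Endothelial markers are at 597 to 603 CPM in WT VEH and at 918 to 963 CPM in WT JZL184 hearts, and at 775 to 867 CPM in CD VEH and 588 to 680 CPM in CD JZL184 hearts.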

How the data were processed

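RNA from the hearts of 11 male mice (ventricle per the labels) was extracted with TRIZOL and sequenced on a HiSeq3000 instrument. The deposited values are estimated counts for each gene and mouse in 1 table, which the authors made with Salmon 0.7.2 on Ensembl release 85 (GRCm38) and tximport 1.2.0, without normalization. The authors tested their counts with DESeq2 1.26.0 after a filter on genes under 1 log CPM. The columns give a group and a mouse letter absent from the labels, and 0 columns had no group. Whether the mice came from separate litters is not given in the sources used here.

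After rounding of these estimated counts, edgeR 4.0.16 (limma 3.58.1, R 4.3.3) fitted all 4 groups at once with TMM factors and its quasi-likelihood F-test, for the 11319 genes whose log2 CPM averaged 1 or more. P-values were adjusted over all genes tested (Benjamini-Hochberg), a call is an adjusted p under 0.05, and 95% intervals come from the same fit. CPM are counts scaled to the TMM-adjusted library size. The common biological coefficient of variation was 9.13%. Positions and lengths come from GENCODE mouse release 21, which matched 22315 of 22608 genes by identifier, and promoters from RefSeq (GRCm38.p6). The filter left no member out.

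The 4 genes, the 6 lists and the marker lists were chosen with earlier results of these data known. Named beside the members are 24 chosen genes of the lists, the called genes with the highest and lowest log2 fold-change of each list, and the 3 genes most like each member by Pearson's r of log2 CPM (prior count of 2). Not all of them are described. Alternatives were DESeq2 1.42.0, RLE and upper quartile factors, no filter, a minimum of 10 counts in each mouse, a model of only the compared groups, offsets for gene length and GC content (loess, span 0.5), no mitochondrial genes, no interval genes in the TMM factors, a threshold of 0.01 and leaving out each mouse. The offset for the longest transcript, and the alternatives for the ratio to 0.5 and for the lists, were added after seeing the data. Steps were tested on simulated counts.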

Additional observations from a re-analysis of the deposited data

Results flagged for a closer look

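For all 4 regulators the response to JZL184 differed between the genotypes by the test of the difference itself, the genotype by treatment interaction in edgeR. The log2 response in CD minus that in WT mice was 0.64 for Gtf2i (adjusted p = 0.000273), 0.78 for Gtf2ird1 (adjusted p = 0.00091), 0.69 for Baz1b (adjusted p = 0.000415) and 0.75 for Mlxipl (adjusted p = 0.000718). With the offset for gene length the values were 0.41, 0.63, 0.37 and 0.70, and all 4 passed the threshold. As 51.5% of all genes tested were called in this term, the calls are not particular to these genes.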

How the results depend on the processing

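No paired analysis was possible because the columns of the count table carry no replicate number that the sample labels share. Over the 6 comparisons no log2 fold-change of a regulator changed direction under the alternatives tried. WT VEH holds 2 mice, so the calls against it rest on few animals. For CD JZL184 against WT JZL184, Gtf2ird1 missed the threshold without the filter on low counts (-0.25, adjusted p = 0.0664), with at least 10 counts in every mouse (-0.25, adjusted p = 0.0514) and with only the compared groups (-0.28, adjusted p = 0.0751), and ranged from -0.34 to -0.17 when each mouse was left out. For WT JZL184 against WT VEH, Gtf2ird1 missed it with only the compared groups (-0.38, adjusted p = 0.0540). Leaving out each mouse gave -0.50 to -0.33 for Gtf2ird1, -0.37 to -0.30 for Gtf2i and -0.41 to -0.30 for Baz1b in that comparison, with 1 to 4 regulators called. The ratio of Gtf2i in CD VEH to WT VEH was 0.472 with the length offset (95% interval 0.435 to 0.511). Its averaged ratio was 0.532 with the GC offset (interval from 0.498) and 0.528 to 0.543 when each mouse was left out, with intervals that included 0.5 in 8 of 11 such fits, and that of Baz1b was 0.458 to 0.477, with an interval wholly below 0.5 in 1 of them and including it in the others.

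The number of genes called over the 6 lists ranged from 2 to 42 in CD VEH against WT VEH, from 16 to 43 in CD JZL184 against CD VEH and from 3 to 31 in WT JZL184 against WT VEH when each mouse was left out, with the lowest count without CD VEH mouse A or E in the second (16 in both) and without WT VEH mouse C in the others (2 and 3). It was 10 in WT JZL184 against WT VEH with only the compared groups. Averaged over treatments it was 2 with DESeq2, 1 with upper quartile factors, without the filter, with at least 10 counts in every mouse, with each length offset, with the GC offset and without mitochondrial genes, and 0 to 2 when each mouse was left out. The number of all genes called in CD VEH against WT VEH was 3440, and 385 without WT VEH mouse C, and in WT JZL184 against WT VEH it was 3332 and 558. Averaged over treatments 123 genes were called, 442 with DESeq2 and 40 without either WT VEH mouse.

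Per kilobase of the longest transcript, the WT VEH level was 28.3 CPM for Gtf2i, 2.99 for Gtf2ird1, 10.9 for Baz1b and 5.83 for Mlxipl. With group means subtracted, the likeness to Gtf2i was 0.549 for Baz1b, 0.296 for Gtf2ird1 and 0.486 for Mlxipl.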
